A study of Bos taurus with 252 samples.

Results

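The immediate early genes FOS, FOSB, JUN, JUNB, EGR1, EGR3, IER2, ATF3 and NR4A1 were followed in the whole blood of feedlot steers. They were taken by symbol, not by their values, and make up 9 of the 33282 genes in the table of gene counts. All 9 passed the filter on low counts, which left 19056 genes for testing. The study asked how single-dose antimicrobial metaphylaxis, the treatment of every animal of a group on arrival, changes the blood transcriptome of cattle that stay healthy. Jugular blood was drawn from 42 crossbred steers into tubes that lyse the cells and stabilize RNA, before treatment on day 0, then on days 3, 7 and 14, and last on days 21 and 56, and each draw gave an mRNA library. Each of 7 groups held 6 steers: a negative control (NC) that was given no antimicrobial on arrival, and groups injected under the skin once, after the day 0 draw, with the cephalosporin ceftiofur (CEFT), the fluoroquinolone enrofloxacin (ENRO), the phenicol florfenicol (FLOR), the tetracycline oxytetracycline (OXYT) or a macrolide, tildipirosin (TILD) or tulathromycin (TULA). All steers, NC included, had received tildipirosin, a growth implant of trenbolone and estradiol, parasite control and vaccines when backgrounding began, before arrival. The steers of a group shared a treatment pen, so the treatment and the pen cannot be told apart. No steer was treated for disease, and the age of the steers was not given in the sources used here.

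Immediate early genes are switched on by factors already present in the cell, without new protein synthesis, soon after a growth factor, cytokine, antigen or stress signal arrives. MAP kinases activate serum response factor with its ELK partners and CREB, which start transcription, and the short-lived messages are soon removed. FOS and FOSB proteins pair with JUN or JUNB proteins to form the transcription factor AP-1. EGR1 and EGR3 are zinc finger factors, NR4A1 is an orphan nuclear receptor, ATF3 is a stress-induced relative of AP-1, and IER2 encodes a nuclear protein of the early response. In leukocytes the group is known for marking recent activation of lymphocytes, monocytes and granulocytes.

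Libraries held 26.1 to 74.1 M counts (M, mega), with a median of 43.6 M. Group medians ran from 33.6 M in TILD to 50.7 M in ENRO. Hemoglobin genes took 0.00404 to 25.5% of the counts of a library, with a median of 0.9%. Markers of T cells, B cells, neutrophils, monocytes, platelets and red cells were all counted, as whole blood requires, although GNLY, CSF3R and GP1BB were not among the gene symbols and CA1 was at 0 in every library. NC and ENRO were sequenced in one lane, TULA in another and CEFT with OXYT in a further one, while the steers of FLOR and TILD were split between lanes. Treatment and lane can therefore hardly be told apart.

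Every member was counted in every library, from EGR3 with 25 to 359 counts in a library to IER2 with 5646 to 21219. Levels are given as CPM, counts relative to library size with TMM scaling, and they are compared within a gene only, since the table holds no transcript lengths. The members differed widely in how far they ranged. FOSB ran from 1.78 to 35.9 CPM, which is 20.2 times from the lowest library to the highest, and FOS ran from 9.83 to 142.8 CPM, or 14.5 times. IER2 was the steadiest member at 179.5 to 412 CPM, or 2.30 times.

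The members did not move as a block after day 0. IER2 rose across the cohort, JUN, JUNB and ATF3 fell on every later day, EGR3 fell on all later days but day 7, and FOSB was lower on days 3, 14 and 56. EGR1 was higher on day 7 only, and NR4A1 on days 3 and 21. By an edgeR quasi-likelihood F test over the 5 later days with steer as a block, 8 of 9 members differed from day 0 at a false discovery rate (FDR) of 0.05. The background was 81% of all genes tested, so the count itself does not set the members apart. FOS was the exception at FDR 0.0712. On day 14 the directions leaned downwards while the genome did not. On that day 6 members were lower and 1 was higher than on day 0, against 30.9% and 34.2% of all genes, and the median log2 fold change was −0.41 over the members and 0.03 over all genes.

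The lean was not the same on every day, and day 7 had none. On day 3, 5 members were lower and 2 higher, against 19.2% and 22.1% of all genes. On day 7, 3 members were lower and 2 higher, against 20.6% and 25.3%. On day 21, 4 members were lower and 2 higher, against 32.5% and 34.1%. On day 56, 6 members were lower and 1 was higher, against 31.8% and 33.9%. The median log2 fold change over the members was −0.22, 0.02, −0.30 and −0.32 on these days, and over all genes it stayed between 0.02 and 0.03.

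**Figure D1:**
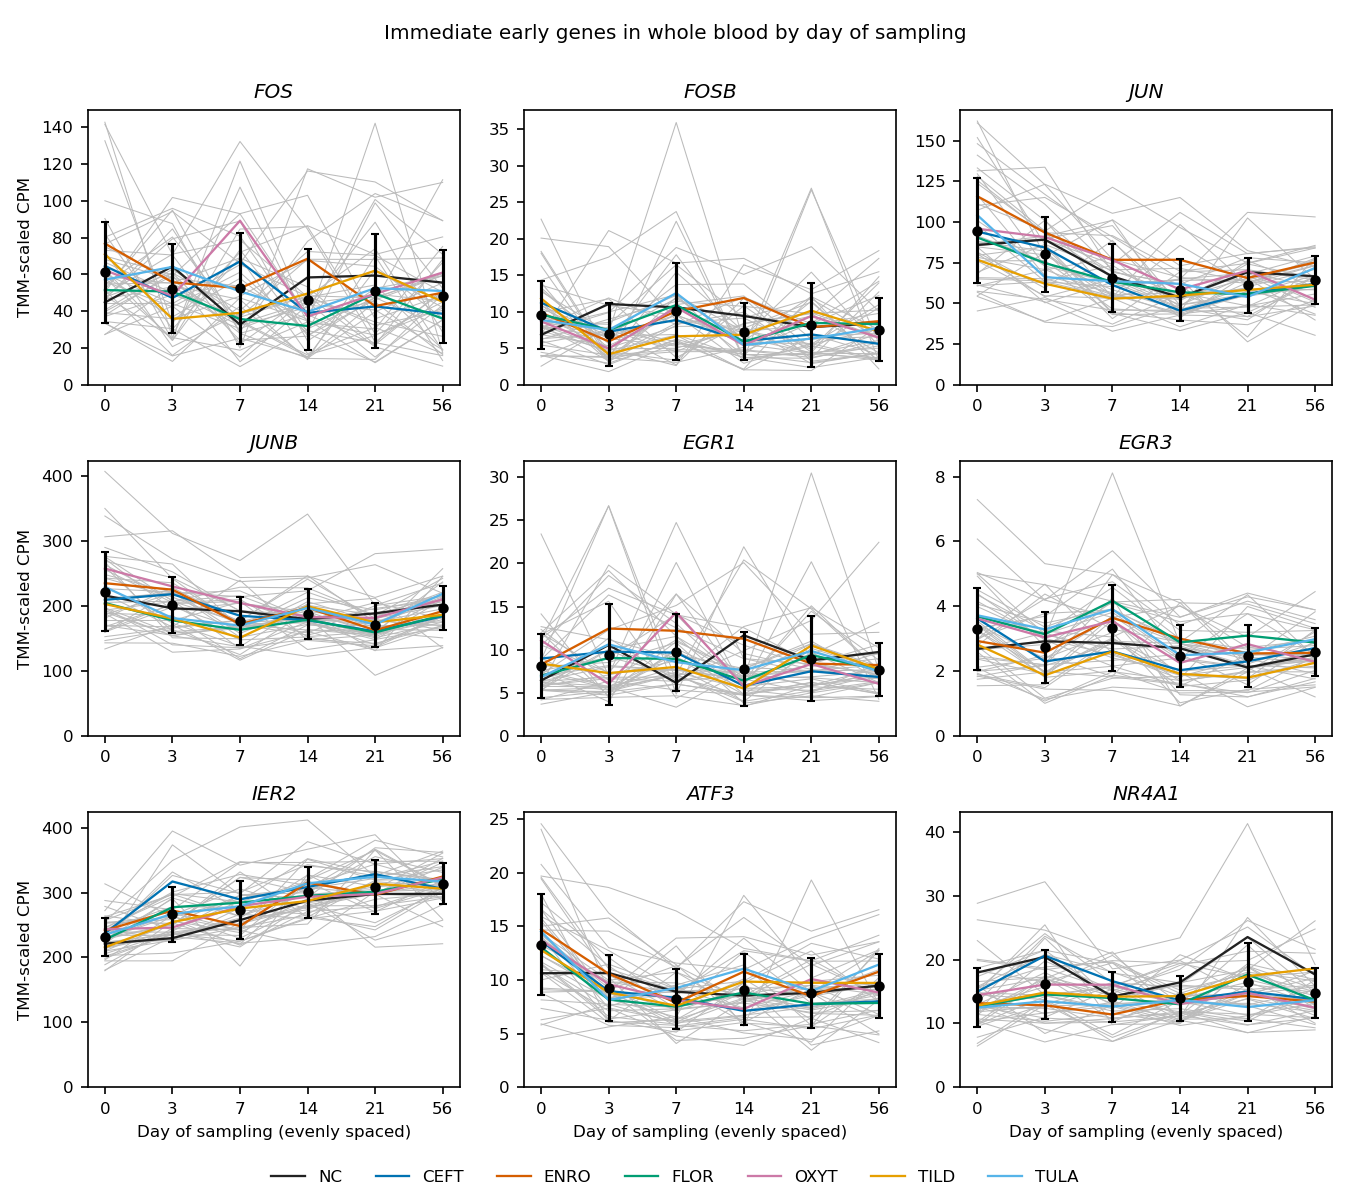
TMM-scaled CPM (linear axis from 0) of each of the 9 members on the 6 sampling days, evenly spaced, where grey lines are the 42 steers, coloured lines the means of the 7 groups, and black points with bars the mean and SD of all steers. The mean of IER2 goes from 232 to 314 CPM, that of JUN drops from 94.8 to 58.3 on day 14, and the lines of FOS and FOSB cross widely.

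IER2 had the largest F statistic of the members. It was at 232 ± 29 CPM on day 0 (SD, n = 42; lowest 179.5, median 229, highest 314) and at 314 ± 31.6 CPM on day 56 (lowest 221, median 311, highest 364). The days overlapped between steers, yet within steers the direction was nearly uniform. Its level was above the steer's own day 0 in 35, 39, 40, 41 and 41 of 42 steers at the 5 later draws in turn. The log2 difference from day 0 grew from 0.20 ± 0.03 (SE) on day 3 to 0.37 ± 0.03 on day 14 and 0.44 ± 0.03 on day 56, a fold of 1.36 (FDR of the edgeR F test 3.44e-32). Day of sampling took 38% of the variance of log2 IER2, against a median of 8.36% over all genes tested.

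JUN and JUNB, the JUN-type subunits of AP-1, went the other way. JUN fell from 94.8 ± 32.2 CPM on day 0 (lowest 45.3, median 86, highest 162) to 58.3 ± 18.9 CPM on day 14 (lowest 33.2, median 52.8, highest 115). Its log2 difference from day 0 was already −0.23 on day 3, reached −0.69 ± 0.07 on day 14 and stood at −0.53 on day 56 (edgeR FDR 2.16e-21), with −0.52 and −0.61 at the draws between. It was below the steer's own day 0 in 28, 37, 36, 37 and 36 of 42 steers on the 5 later days. JUNB stood at 222 ± 60.6 CPM on day 0 (lowest 133.8, median 207, highest 407) and reached its lowest mean on day 21, at 171 ± 33.8 CPM (lowest 93.3, median 168, highest 281). That log2 difference was −0.36 ± 0.05 (FDR over the 5 days 5.82e-12), and by day 56 the JUNB mean was back at 197 CPM, with 25 of 42 steers below their own day 0.

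FOS and FOSB, the FOS-type subunits, changed less relative to their spread. FOS averaged 61.1 ± 27.6 CPM on day 0 (lowest 27.3, median 54.6, highest 142.8) and 46.3 ± 27.4 CPM on day 14 (lowest 13.6, median 40.1, highest 117). Its log2 difference on day 14 was −0.47 ± 0.16 with an FDR of 0.00564 for that day alone, and on day 56 it was −0.39 ± 0.16 with an FDR of 0.0231, although the F test over all 5 later days did not pass. FOSB was at 9.55 ± 4.67 CPM on day 0, at 6.90 ± 4.31 on day 3 and at 10.02 ± 6.65 on day 7. Its fall on day 3 was −0.50 ± 0.16 (edgeR F test FDR 0.00366 over all days), with 30 of 42 steers below their own day 0, while on day 7 only 18 were. Day took 4.07% of the variance of FOS and 5.92% of that of FOSB, both under the median gene.

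EGR1 and EGR3 did not share a course. EGR3 averaged 3.30 ± 1.26 CPM on day 0 (lowest 1.55, median 3.12, highest 7.29), 3.33 ± 1.32 on day 7 and 2.46 ± 0.95 on day 21 (lowest 0.90, median 2.2, highest 4.40). It fell by 0.42 on the log2 scale on day 21 (SE 0.08, edgeR F test FDR 2.38e-10). EGR1 averaged 8.12 ± 3.68 CPM on day 0 (lowest 3.67, median 7.02, highest 23.4) and 9.68 ± 4.44 on day 7 (lowest 3.32, median 8.32, highest 24.7). Its rise on day 7 was 0.27 ± 0.11 (FDR 0.0431 for that day), with 31 of 42 steers above their own day 0.

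ATF3 was lower from the first later draw. It fell from 13.3 ± 4.75 CPM on day 0 (lowest 4.45, median 13.4, highest 24.6) to 9.28 ± 3.08 on day 3 and 8.22 ± 2.77 on day 7 (lowest 4.07, median 7.39, highest 16.4). The log2 difference on day 7 was −0.68 ± 0.08 (edgeR F test FDR 1.55e-16), with 40 of 42 steers below their own day 0, and on day 56 it was still −0.48. NR4A1 was at 14.1 ± 4.67 CPM on day 0, 16.1 ± 5.39 on day 3 and 16.5 ± 6.08 on day 21 (lowest 8.51, median 15.4, highest 41.4). Its rises were 0.20 on day 3 and 0.22 ± 0.07 on day 21, and days 7, 14 and 56 were within 0.09 of day 0.

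Markers of blood cell types moved over the same days. Summed neutrophil markers had a median of 3338 CPM on day 0 (2061 to 6027) and 2155 on day 21 (1335 to 3573), when all 7 tested were lower. Summed monocyte markers fell from a median of 2216 CPM (1261 to 5320) to 1451 on day 14 (839 to 2653), when 6 of 7 were lower. T cell markers rose from 1522 CPM (1081 to 2230) to 2213 on day 56 (1543 to 3078), with 7 of 8 higher, and B cell markers from 1746 (957 to 2476) to 2161 (1484 to 3259), with 6 of 7 higher. On day 56, 4 of 6 NK and cytotoxic markers were lower and 1 was higher. Of 7 eosinophil and basophil markers 4 were higher and 1 was lower on that day, and of 6 platelet markers 1 was higher. Erythroid markers had a median of 2337 CPM on day 0, 35412 on day 21 and 3387 on day 56. Over all libraries, as a description of deviations from the mean of each group and day, JUNB went with the mean log2 CPM of the neutrophil markers at r = 0.63, JUN with that of the monocyte markers at 0.48 and of the neutrophil markers at 0.41, ATF3 with both at 0.39, EGR3 with that of the B cell markers at 0.49, and NR4A1 and IER2 with that of the monocyte markers at 0.40 and −0.36. NR4A1 was higher on day 21, when 6 of 7 monocyte markers were lower. The part of cell composition in the day courses was not tested, and in whole blood fewer cells of a type and less RNA per cell cannot be told apart.

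**Figure D2:**
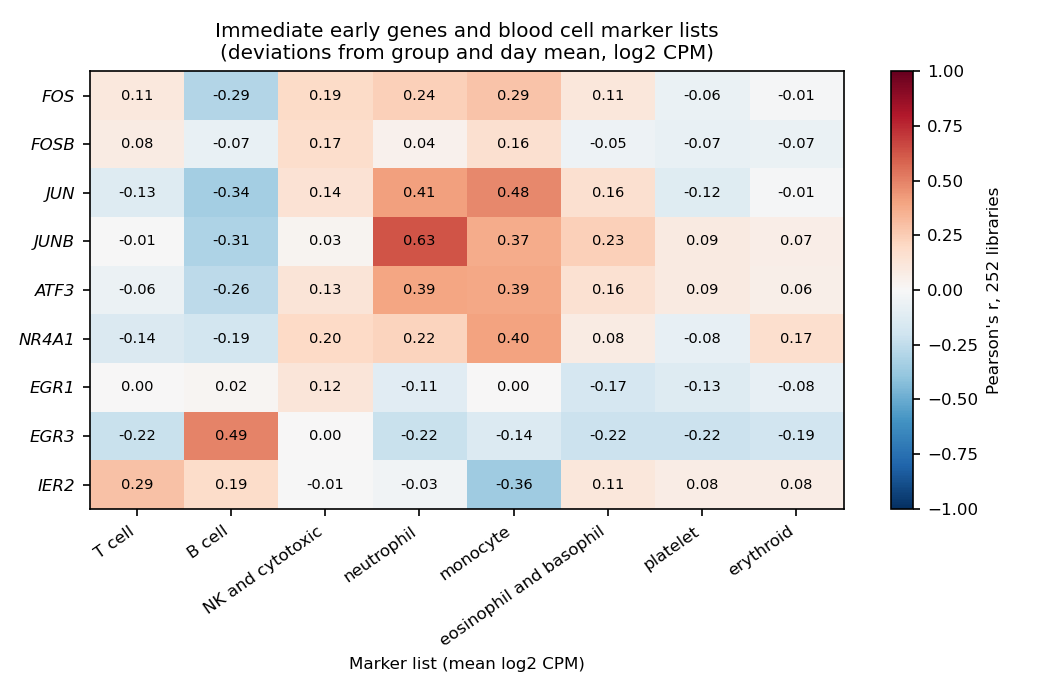
Pearson's r, as colour and number, between each member (rows) and the mean log2 CPM of each blood cell marker list (columns), over deviations of all libraries from the mean of their group and day. The highest value is 0.63, for JUNB with neutrophil markers, and IER2 with monocyte markers has the lowest, −0.36.

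The day courses were next examined within each group. In a single fit of all libraries with steer as a block, 31 of 63 gene and group combinations changed over the days at FDR 0.05, against a background of 45.8% of all genes over the 7 groups. IER2 changed in all 7 groups, and on 27 of its 35 group and day tests it was higher than on day 0, with none lower. JUN changed in every group but TILD (FDR 0.103) and was lower in 22 of 35 tests. ATF3 changed in 5 groups, the exceptions being TILD (FDR 0.0950) and NC (FDR 0.823), and was lower in 20 of 35.

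The other members changed in fewer groups. JUNB changed in CEFT, ENRO, OXYT, TILD and TULA, and EGR3 in CEFT, OXYT, TILD and TULA, each with 9 of 35 tests lower and none higher. NR4A1 changed in NC, CEFT and TILD, with 5 of 35 tests higher. EGR1 changed in OXYT alone at this threshold (FDR 1.25e-04), and FOS and FOSB in none, although FOSB in TILD was lower on day 3 by itself, by 1.51 on the log2 scale. EGR1 in NC was higher on day 14 by itself, at 0.74, while in OXYT it was lower on that day, at −0.82. Over all 315 single-day tests 33 were higher and 63 lower, against 11.8% and 11.3% of all genes, or 96 in all, against 23.1%. Without the steer block 12 of the 63 combinations passed, a count with no share of all genes to set beside it.

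**Figure D3:**
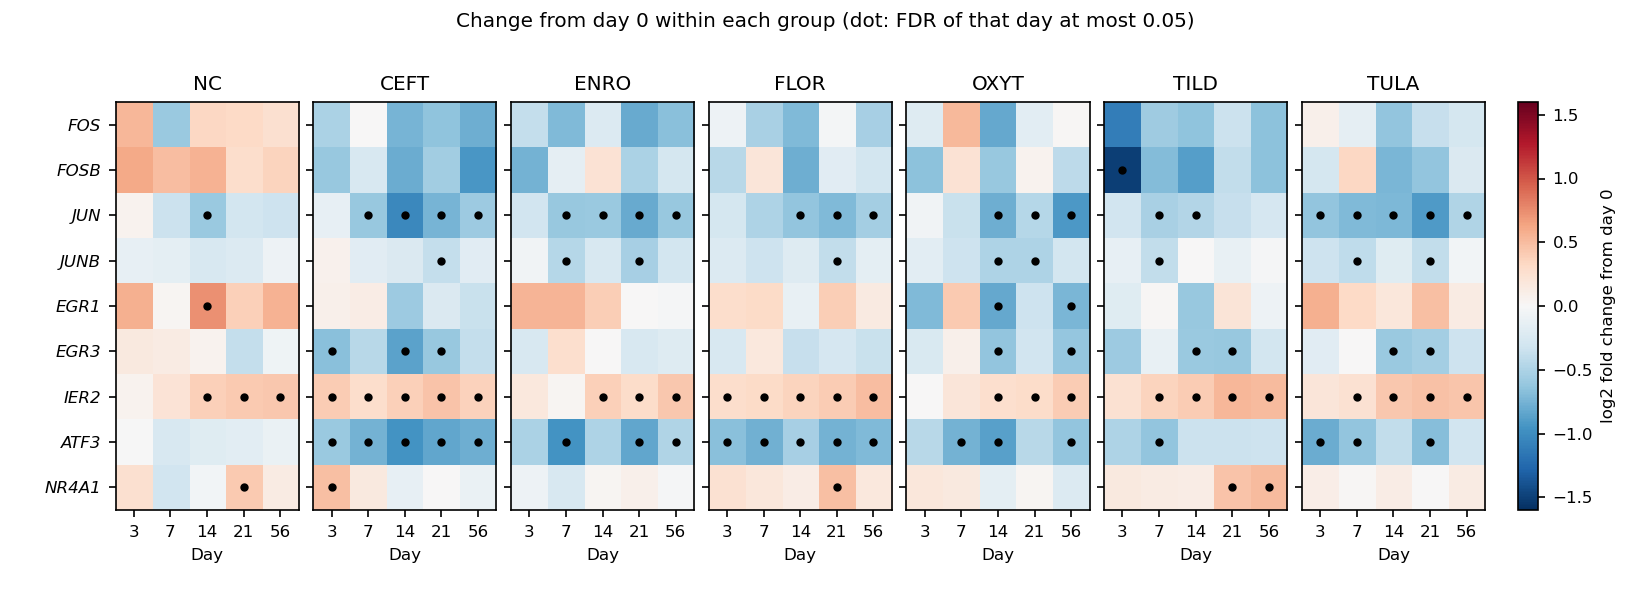
Log2 fold change from day 0 (colour, blue lower and red higher) of the 9 members (rows) on the 5 later days (columns) in each of the 7 groups (panels), with a dot where that day differed from day 0 at FDR 0.05. IER2 is red throughout with 27 dots, JUN and ATF3 are mostly blue with 22 and 20 dots, and FOS has none.

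The NC group gave the courses without an antimicrobial on arrival. In NC 3 of 9 members changed over the days, JUN, IER2 and NR4A1, against 36% of all genes. IER2 in NC rose by 0.43 by day 56, with 6 of 6 steers above their own day 0 and a median ratio of 1.3. ATF3 in NC differed from day 0 by −0.25 at most, on day 7, with 5 of 6 steers below their own day 0. FOS in NC had a median ratio to the steer's own day 0 of 1.56 on day 3, which was 0.71 on day 7 and 1.6 by day 14. CEFT and OXYT each had 6 members called, against 47.3% and 47.9% of all genes, and TULA had 5, ENRO 4, TILD 4 and FLOR 3, against 48.1%, 49%, 48.1% and 43.9%.

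Treated groups were then compared with NC on each day, as the study design asks, by edgeR's quasi-likelihood test at FDR 0.1. All these comparisons share the 6 NC steers. On simulated data for CEFT on day 3, the test recovered 8.08% of log2 changes of 0.5 and 36% of changes of 1. A gene that was not called may therefore still differ. Of 324 gene, group and day combinations 1 passed, against 0.694% of all genes over the 36 comparisons, and 34 had an unadjusted p under 0.05, against 10.2%. DESeq2's Wald test, run as an alternative, called 9 of 324 at the same FDR, against 3.37% of all genes with an adjusted p. The edgeR call was IER2 in CEFT on day 3, where 10.9% of all genes passed, so 1 of 9 members there is close to the background. On that day IER2 was at 317 ± 54 CPM in CEFT (SD, n = 6; lowest 264, median 296, highest 395) and at 230 ± 18.1 CPM in NC (lowest 195, median 238, highest 242). The ranges did not overlap, which held for 3.58% of all genes in that comparison.

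The log2 difference of IER2 between CEFT and NC on day 3 was 0.45 ± 0.11 (edgeR FDR 0.0580). The other means of IER2 on day 3 lay between these, with 246 ± 31.3 CPM in OXYT, 254.5 ± 39.2 in TILD, 267 ± 22.7 in TULA, 273 ± 33.4 in ENRO and 277 ± 40.9 in FLOR. With lane as a term in the fit the log2 difference was 0.14 (FDR 0.890), and after ComBat_seq adjustment for lane it was 0.40 (FDR 0.341). CEFT and NC shared no lane. The lane term therefore rested on the split steers of FLOR and TILD, and ComBat_seq was not given the treatment. Neither value can part lane from treatment. Leaving out CEFT steer 6 or NC steer 7, 12, 13 or 15 took the FDR to between 0.103 and 0.127, with log2 differences of 0.38 to 0.46. In the same libraries the T cell marker sum was 1609 to 2816 CPM in CEFT and 1467 to 2323 in NC, the B cell sum 975 to 2735 and 1196 to 1995, the neutrophil sum 2342 to 3478 and 2070 to 3009, and the monocyte sum 1096 to 2928 and 1681 to 2778. Their part in the difference was not tested.

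**Figure D4:**
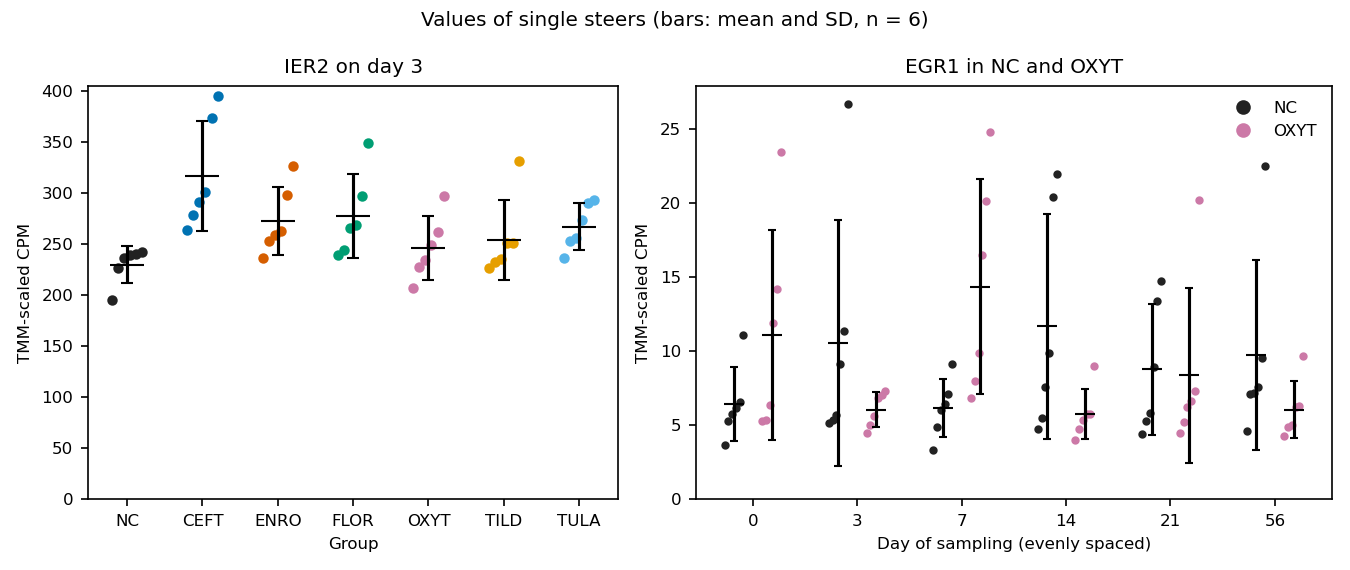
TMM-scaled CPM of IER2 on day 3 in each of the 7 groups (left) and of EGR1 in NC and OXYT on the 6 days, evenly spaced (right), with points for steers and bars for the mean and SD of 6. The CEFT steers sit between 264 and 395 CPM of IER2 and the NC steers between 195 and 242, while EGR1 in OXYT has its highest mean, 14.3 CPM, on day 7.

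Several members differed from NC by more than this without passing the edgeR test, with wide spreads between steers. On day 3 FOSB was below NC in all 6 treated groups (log2 differences −1.40 to −0.56). On day 7 FOS was above NC in all 6 (0.13 to 1.46). The 6 comparisons of a day share the same NC steers, so the groups named below do not stand apart by direction. FOSB on day 3 was at 11 ± 6.71 CPM in NC (lowest 3.83, median 8.25, highest 21.1) and at 4.17 ± 2.26 in TILD (lowest 1.78, median 3.53, highest 8.27), a log2 difference of −1.40 ± 0.43 at an edgeR FDR of 0.133. In OXYT it was at 4.94 ± 2.0 CPM (log2 difference −1.17, FDR 0.163) and in ENRO at 5.93 ± 2.61. FOS on day 7 was at 32.7 ± 20.2 CPM in NC (lowest 9.83, median 32.4, highest 66) and at 89.2 ± 40.1 in OXYT (lowest 34.7, median 100.2, highest 132), a log2 difference of 1.46 ± 0.45 at FDR 0.552. CEFT had 67 ± 18.2 CPM of FOS on that day. The ranges overlapped in each of these pairs. DESeq2's Wald test called FOSB on day 3 in TILD (FDR 0.0274) and in OXYT (FDR 0.0514) but not FOS.

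EGR1 was above NC in all 6 treated groups on day 7 (log2 differences 0.39 to 1.22). It was below NC in all 6 on day 14 (−1.10 to −0.06). On day 7 it was at 6.15 ± 1.98 CPM in NC (lowest 3.32, median 6.22, highest 9.14), at 14.3 ± 7.26 in OXYT (log2 difference 1.22, edgeR FDR 0.50) and at 12.2 ± 4.33 in ENRO (0.98, FDR 0.230). On day 14 it was at 11.7 ± 7.59 CPM in NC (lowest 4.73, median 8.71, highest 21.9), 5.49 ± 2.16 in TILD, 5.81 ± 1.08 in CEFT and 5.74 ± 1.71 in OXYT, with log2 differences of −1.10, −1.04 and −1.03, none of them called by either test. NR4A1 on day 21 was at 23.5 ± 10.4 CPM in NC (lowest 10.3, median 22.2, highest 41.4) and 12.6 ± 2.58 in TULA (lowest 9.79, median 12.1, highest 16.9), a log2 difference of −0.93 ± 0.26 at FDR 0.174. All 6 treated groups were below NC for NR4A1 on day 21 (log2 differences −0.93 to −0.42). DESeq2's Wald test called EGR1 on day 7 in OXYT (FDR 0.0758) and in ENRO (FDR 0.0420), and NR4A1 on day 21 in TULA (FDR 0.0388). Its other calls were IER2 and NR4A1 in ENRO on day 3 (log2 differences 0.25 and −0.67) and NR4A1 in OXYT on day 56 (−0.51).

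Group means also differed from NC on day 0, before any injection. At that draw FOS was at 44.7 ± 17.5 CPM in NC (lowest 27.3, median 39.1, highest 76.5) and at 51.5 to 76.8 CPM, as means, in the 6 other groups, with 76.8 ± 32.1 in ENRO. The day 0 log2 differences from NC ran from 0.20 to 0.78 for FOS, from 0.36 to 0.80 for FOSB, from 0.27 to 0.48 for ATF3 and from −0.52 to −0.26 for NR4A1. None of these passed the test, and all 6 differences of a gene share the same 6 NC steers. The day 0 differences of FOSB were positive in all 6 groups, while those on day 3 were negative in all 6.

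To set the day 0 level aside, the change from day 0 within steers was compared between each treated group and NC. Of 270 combinations 1 passed at FDR 0.1, against 0.75% of all genes. That count is not above the share of all genes. The call was EGR1 in OXYT on day 56, where 2.59% of all genes passed. EGR1 in OXYT went from 11.1 ± 7.08 CPM on day 0 to 6.03 ± 1.93 on day 56, a log2 change of −0.73, and in NC from 6.41 ± 2.49 to 9.73 ± 6.43, a log2 change of 0.55. The difference of the changes was −1.28 ± 0.41 (edgeR FDR 0.0894). It was −1.30 with an FDR of 0.137 when OXYT and NC were fitted alone, and −0.91 without NC steer 12, the NC steer with 22.5 CPM on day 56 while the others had 4.6 to 9.50.

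The course of EGR1 over all days was also called between OXYT and NC, a count over the 6 treatments not above the share of all genes. The F test of timepoint by group gave F = 7.29 at an edgeR FDR of 0.00371 for EGR1 in OXYT, 1 of 54 gene and group combinations, against 2.98% of all genes over the 6 treatments and 3.25% in OXYT. EGR1 in OXYT averaged 11.1, 6.04, 14.3, 5.74, 8.34 and 6.03 CPM on the 6 days in order, and in NC 6.41, 10.5, 6.15, 11.7, 8.75 and 9.73. OXYT had the higher mean on days 0 and 7 and NC on the other days, with overlapping ranges on each. In the fit of OXYT and NC alone the FDR was 0.0252, and it was 0.0617 without NC steer 12, 0.0712 without NC steer 15, 0.0525 without NC steer 5, 0.102 without OXYT steer 4 and 0.0705 without OXYT steer 6. The neutrophil marker sum in OXYT had a median of 4242 CPM on day 0 and 2396 on day 56, and in NC 3098 and 2682, and its part in the EGR1 result was not tested. After EGR1, the lowest FDRs were those of NR4A1 in CEFT at 0.0582, FOS in OXYT at 0.0693 and EGR1 in CEFT at 0.0712, none of them called.

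Over the mean of the 6 days no member differed from NC at FDR 0.05 in 54 combinations, by limma voom with a random effect of steer, against 1.95% of all genes. At an unadjusted p under 0.05 there were 4, against 13.5% of all genes. NR4A1 was 3 of these, lower than NC by 0.41 in ENRO (SE 0.14), by 0.36 in FLOR and by 0.41 in TULA on the log2 scale. The 6 days include day 0, before any injection, when NR4A1 was already below NC in all 6 groups. Those log2 differences ran from −0.52 to −0.26, with none called. The steer means of NR4A1 over 6 days were 18.4 ± 5.85 CPM in NC (lowest 10.9, median 17.8, highest 26), 13.1 ± 2.36 in ENRO and 13.1 ± 1.72 in TULA. The other was IER2 in CEFT, at 298 ± 29.3 CPM against 265 ± 25.8 in NC.

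After day 0 the groups were handled in one fixed order, NC, ENRO, FLOR, TULA, TILD, CEFT and OXYT, so the members were also set against the place in that order. Each group has 1 place, so there are 7 places and not 42, and the p-values from shuffling steers, which treat the steers of a pen as independent, are too small. Over days 3 to 56 none of 9 members passed at an adjusted p of 0.05 among 42 steers, with Spearman's rho from −0.28 for FOSB (permutation p = 0.078, adjusted 0.392) to 0.19 for IER2 (p = 0.237, adjusted 0.545). Single days gave 3 relations at an adjusted p of 0.05 over the 9 members. Each day was adjusted by itself, and there is no share of all genes to set beside this count. FOS on day 7 had rho = 0.47 (permutation p = 0.00207, adjusted 0.0186) and Pearson's r = 0.49 (p = 0.00105), and r was 0.40 without the 2 steers farthest out. EGR1 on day 14 had rho = −0.48 (permutation p = 0.00154, adjusted 0.0139) and r = −0.51 (p = 0.00053), and −0.41 without 2 steers. FOSB on day 14 had rho = −0.40 (permutation p = 0.0088, adjusted 0.0396) and r = −0.39 (p = 0.0103), and −0.30 without 2 steers. Within the 3 lanes rho was 0.20, 0 and 0.42 for FOS, −0.07, −0.09 and −0.04 for EGR1, and −0.03, 0.07 and 0.21 for FOSB. Each lane held only some of the places, so these values do not test a trend over all of them.

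With 1 mean per group, the exact permutation test over the 7 places gave other relations. No member passed over days 3 to 56, where FOSB had the lowest rho, −0.89 (exact p = 0.0123, adjusted 0.111). FOS on day 7 had rho = 0.82 (exact p = 0.0341, adjusted 0.216), EGR1 on day 14 had −0.82 (exact p = 0.0341, adjusted 0.298) and FOSB on day 14 had −0.64 (exact p = 0.139, adjusted 0.417), so none of the 3 passed. On day 56 EGR1 had rho = −0.96 (exact p = 0.00278, adjusted 0.0250) and r = −0.96 (exact p = 0.000794, adjusted 0.00714), and FOSB had −0.93 (exact p = 0.00675, adjusted 0.0304) and r = −0.91 (exact p = 0.00675, adjusted 0.0304). Their r was −0.95 and −0.97 without the first and last places. Among the 42 steers the same rho on day 56 was −0.30 for EGR1 (permutation p = 0.0522, adjusted 0.278) and −0.22 for FOSB (p = 0.167, adjusted 0.375). Order, treatment, pen and lane cannot be told apart.

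The AP-1 members were high in the same steers. Over the mean log2 CPM of 42 steers, 10 of 36 pairs of members correlated at an adjusted Spearman p of 0.05, all positively, and 12 did by Pearson's r. A rho as high as the lowest of these 10, 0.49, was found in 1.69% of all pairs of tested genes. The 5 genes FOS, FOSB, JUN, JUNB and ATF3 gave 9 of the 10, and JUN with NR4A1 the other. JUN and JUNB had r = 0.76 and rho = 0.75 (permutation p = 1e-05 for both, the smallest that the shuffles can give), r = 0.72 without 2 steers, and 0.84, 0.75 and 0.76 within the 3 lanes. FOS and JUN had r = 0.72 and rho = 0.74 (permutation p = 1e-05), 0.75 without 2 steers, and 0.70, 0.75 and 0.80 within lanes. FOS and FOSB had r = 0.61 and rho = 0.59, 0.56 without 2 steers, and 0.72, 0.66 and 0.50 within lanes.

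ATF3 went with FOS at r = 0.70, with JUNB at 0.67, with JUN at 0.66 and with FOSB at 0.61. JUN, JUNB and ATF3 also went with the neutrophil and monocyte markers, at r of 0.37 to 0.63 over single libraries, while FOS had 0.24 and 0.29 and FOSB 0.04 and 0.16, and the part of cell composition in the pairs was not tested. EGR1 and EGR3 correlated at r = 0.39 (permutation p = 0.010, adjusted 0.032) and rho = 0.35 (adjusted 0.078), and r was 0.34 without 2 steers. IER2 correlated with no other member at an adjusted p of 0.05, and its lowest r was −0.30 with NR4A1 (permutation p = 0.050, adjusted 0.106). Steer took 29.4% of the variance of FOS and 55.7% of that of EGR3 and of NR4A1, against 38.6% for the median gene. Over single libraries, as a description of deviations from the mean of each group and day, pair correlations ran from −0.19 for JUNB with EGR3 to 0.73 for FOS with FOSB.

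**Figure D5:**
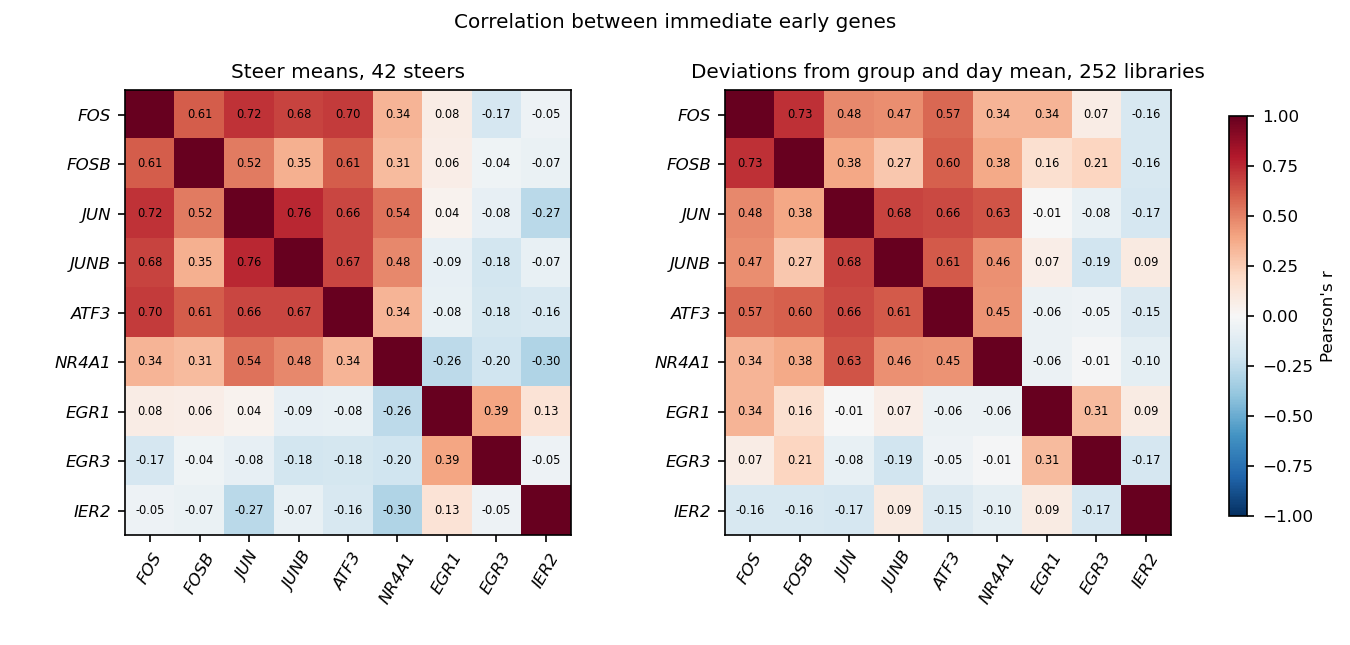
Pearson's r of each pair of members, as colour and number, over the mean log2 CPM of 42 steers (left) and over deviations of all libraries from the mean of their group and day (right). FOS, FOSB, JUN, JUNB and ATF3 form a block of positive values, up to 0.76 on the left and 0.73 on the right. EGR3 and IER2 stand outside it, as does EGR1 on the left.

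All other genes tested were ranked by how their deviations went with the members over all libraries. Of the top 10, 7 were on the lists of other early response and feedback genes. These lists were chosen with earlier results of these data known, so the count is no independent support. The mean r with the 9 members was highest for DUSP1 at 0.39, which encodes a MAP kinase phosphatase, followed by the growth inhibitor BTG2 at 0.37, the transcription factor KLF4 at 0.36, the phosphatase DUSP2 at 0.36 and ZFP36 at 0.35, whose protein speeds the decay of short-lived messages. TAGAP and RHOB followed at 0.35, LOC100847835 and KLF6 at 0.34, and NFKBIA, the inhibitor of NF-κB, at 0.33. The median over the 19047 other genes was −0.01. A high mean did not reach every member: DUSP1 had r = 0.78 with FOS, but 0.09 with EGR1, 0.05 with EGR3 and −0.25 with IER2. The points share library depth and cell composition, so these values are descriptions only. Of the members themselves, FOS had a mean r of 0.36 with the other 8, and IER2 had −0.09.

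The listed relatives and regulators moved with the day of sampling as most genes did, and the listed feedback genes leaned downwards. Of 15 genes listed as feedback genes of the response all changed over the days, against 81% of all genes. On day 21 13 were lower and 1 was higher than on day 0, with a median log2 fold change of −0.58, against 32.5% and 34.1% of all genes, and on day 56 13 were lower and none higher, against 31.8% and 33.9%. On day 21 all 7 neutrophil markers were lower, with a median of −0.80, and 6 of 7 monocyte markers were lower, with a median of −0.54, and their part in these counts was not tested. NFKBIZ fell by 0.92 on day 21 (SE 0.06), SOCS3 by 0.76 on day 7 and SPRY2 by 0.72 on day 14. Of 24 other early response genes all changed, against the same 81%. On day 21 17 of them were lower and 3 higher, against 32.5% and 34.1%, with a median of −0.40. GADD45A, a growth arrest gene, was lower by 0.93 on day 21, and KLF10 by 0.86 on day 56. CYR61 had the widest estimate, −1.13 ± 0.88 on day 14.

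Closer relatives were more mixed. Of 12 other AP-1 family genes 10 changed over the days, against 81% of all genes, which is close to the background. On day 21 5 were lower and 2 higher, against 32.5% and 34.1%. FOSL2, another FOS-type subunit, fell by 1.06 on day 21 (SE 0.06) and BATF3 by 0.92 on day 7, while BATF2 rose by 0.75 on day 3. All 5 other tested genes of the EGR, NAB and NR4A families changed, against the same 81%. NR4A3 was down by 0.67 on day 14, the EGR corepressor NAB1 down by 0.60 on day 21 and NAB2 up by 0.38 on day 56. Of 18 upstream kinases and factors 17 changed, again against 81% of all genes. Among them were MKL2, a cofactor of serum response factor, at −0.38 on day 14 and ELK4 at −0.91 ± 0.30 on day 56.

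Few of these genes differed from NC. Over the 36 comparisons with NC, 1 of 432 tests of the other AP-1 genes passed, none of 180 for the other EGR, NAB and NR4A genes, 8 of 864 for the other early response genes, 6 of 540 for the feedback genes and 11 of 648 for the upstream genes, against the same background of 0.694%. On day 3 in CEFT, where IER2 was higher and 10.9% of all genes passed, JUND was higher by 0.45 (edgeR FDR 0.0946), GADD45B by 0.83 and IER5, a relative of IER2, by 0.46, while RGS1 was lower at −2.17. Of the feedback genes DUSP4, ZFP36L2 and NFKBIZ were lower there at −1.31, −0.51 and −0.51, and of the upstream genes CRTC2 was higher by 0.51 and ELK4 and ELK3 were lower at −2.31 and −0.43.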

How the data were processed

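Gene expression was measured by stranded mRNA sequencing of 252 blood libraries. The deposited values are raw gene counts: the authors trimmed reads with Trimmomatic (0.39 per the labels), aligned them with HISAT2 to the ARS-UCD1.3 assembly, assembled them with StringTie (2.2.0) and derived whole-number counts from its coverage with prepDE, so the counts are estimates from coverage. Counts of all genes were tested here with edgeR (4.0.16) in R (4.3.3), quasi-likelihood, TMM, after the study's filter (CPM above 0.2 in 12 or more libraries). Of 33282 genes 4874 had no count and 14226 were not tested. FDR was 0.05 for day tests, the group effect (limma 3.58.1) and the timepoint by group F test, and 0.1 for the other tests against NC, over all genes tested. Log2 CPM used a prior count of 2. Correlations used 100000 permutations, two-sided, adjusted over the pairs or members.

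Groups came from the sample labels. Libraries of a steer share its number, and steer was the block: the deviations of libraries of one steer correlated at a median r of 0.34, against −0.08 between steers, and above 0.1 in 42 of 42. Members and gene lists were chosen with earlier results of these data known. All 9 members are named, with the up to 3 called genes of largest absolute log2 fold change per list and the 10 genes most like the members. One gene that this rule would name is not reported here. Alternatives were other normalization, filters, tools, lane terms, left-out groups or steers, the prior count and no block. The fits of OXYT and NC alone, those without single steers for EGR1, the processing order over 7 group means, and a fit with trended dispersions were chosen after seeing the data. Scripts were tested on simulated data with changes by day and in CEFT. Of the calls there, 5.5% were false over the days and 12% for CEFT against NC on day 3. For the change from day 0 in CEFT on day 3 the share was 18.8%, and for the group effect over 6 days 60.4%.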

Additional observations from a re-analysis of the deposited data

Results flagged for a closer look

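Some steers stood far from the other 5 of their group, by a gap of over 0.625 of the group's range. Of 126 sets of 6 steers tested, 14 held such a steer, 5 of 63 in means over 6 days and 9 of 63 on single days. Chance alone marks about 1 in 20 if values are normally distributed. That was not tested for these CPM values, which were not put on a log scale. The single-day sets were those of IER2 and FOSB on day 3, FOS on days 0 and 7, EGR1 on days 0, 7, 14 and 56 and NR4A1 on day 21, the gene and day pairs described above, chosen after their values were seen, so their count is not to be read against that share.

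In means over 6 days, JUNB was at 294.5 CPM in steer 5 of TILD (others 149 to 172) and at 235 in steer 3 of TULA (175 to 191). EGR1 was at 11.5 CPM in steer 10 of FLOR (6.42 to 8.16). EGR3 was at 4.29 CPM in steer 15 of NC (2.1 to 2.49) and at 3.52 in steer 10 of TILD (1.63 to 2.27).

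On day 3, IER2 was at 195 CPM in steer 12 of NC (226 to 242), at 332 in steer 10 of TILD (226 to 251), and FOSB at 18.9 in steer 4 of CEFT (3.8 to 6.55). FOS was at 142 CPM in steer 1 of OXYT on day 0 (27.3 to 58.8) and at 65.3 in steer 3 of FLOR on day 7 (24.2 to 34.1). EGR1 was at 14.1 CPM on day 7 (7.07 to 9.46) and at 8.77 on day 56 (7.19 to 7.70) in steer 10 of FLOR, at 8.96 on day 14 in steer 1 of OXYT (4.01 to 5.73) and at 22.5 on day 56 in steer 12 of NC (4.6 to 9.50).

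The course of EGR1 differed between OXYT and NC by the edgeR test of timepoint by group (F = 7.29), and its change from day 0 to day 56 differed by −1.28 on the log2 scale. In the fit of OXYT and NC alone, the first had an FDR of 0.0252 and was not called without some single steers, as given with its values. The second had an FDR of 0.137 in that fit, and of 0.0954 without OXYT steer 2 to 0.365 without NC steer 12. Neither count of such calls over all treatments was above the share of all genes.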

How the results depend on the processing

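No single-gene result called in the main fit turned its direction, a check that did not cover the processing order. Of 160 values of single genes under other settings, 127 kept their side of the threshold, 30 no longer passed and 3 passed only there. The members called over the days were 7 to 9: FOS passed by limma voom, by DESeq2's likelihood ratio test and without the NC group, and EGR1 did not pass with no steer block, without CEFT or without OXYT. With a group left out, 14862 (TILD) to 15195 (NC) of 19056 genes passed, against 15444 with all groups. The steer block pairs the libraries of a steer: without it 12 of 63 within-group courses passed (31 with it), 7 of 9 members changed over the days, and 0 changes from day 0 differed from NC, as with no filter on low counts (0). Calls over the days in the whole cohort also fell over all genes without the block, to 13651 of 19056. The fall to 7 of 9 members is therefore not particular to them. The fall in within-group courses has no share of all genes to set beside it. Of the 324 tests against NC, DESeq2's Wald test called 9 in place of 1 (3.37% of all genes in place of 0.694%), adding IER2, NR4A1 and EGR1 in ENRO, FOSB, EGR1 and NR4A1 in OXYT, FOSB in TILD and NR4A1 in TULA on single days, while ComBat_seq by lane called 0, ComBat_seq with the likelihood ratio test 0 and lane as a term 0. Treatment and lane can hardly be told apart, so these lane settings could also take away a difference due to treatment. The place in the processing order gave 1 relation on day 7 alone and 2 on day 14 alone, and 0 over days 3 to 56, while 7 group means gave 2 on day 56 alone and 0 at the other settings. These counts have no share of all genes beside them and were adjusted within each setting only. The pairs of members that correlated stayed at 10 with another prior count and with DESeq2 size factors. What depth limits was not tested, and p-values against NC measure the spread between steers of 1 pen a group.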

Other observations

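High values of the members were spread over many libraries. A member stood above 2 times its own median in 70 libraries, 46 of them with 1 such member, 18 with 2 and 6 with 3 or more. FOSB did so in 31 libraries, EGR1 in 23, FOS in 21, ATF3 in 10, JUN in 8, EGR3 in 5, NR4A1 in 3 and JUNB in 1, and IER2 in none. Day 0 held 17 of the 70 libraries, day 7 14 and day 3 12, and days 14, 21 and 56 held 8, 11 and 8. The most members in a library was 4, in NC steer 5 on day 3 (FOSB, JUN, ATF3 and NR4A1) and in OXYT steer 1 on day 0 (FOS, JUN, EGR1 and EGR3).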
